A study of Bos taurus with 4 samples.

Results

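Interferon tau, the pregnancy-associated glycoproteins (PAG) and the trophoblast Kunitz domain proteins (TKDP) are products of the ruminant trophoblast, and 19 such genes were read on arrays of cattle blastocysts. Members were the probes whose platform gene symbol was IFNT, TKDP plus a number, or PAG plus a number other than PAG1, a symbol that belongs to an unrelated adaptor gene on another chromosome. This gave 21 probes for 19 of 15229 gene symbols, out of 43794 embryo probes. They covered IFNT with 1 probe, TKDP1, TKDP2 and TKDP4 with 4 probes, and 15 PAG genes with 16 probes. TKDP4 and PAG11 each had a second probe.

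The study compared embryos by the age of the sire around puberty. Oocytes from ovaries collected at slaughter were matured, fertilised and cultured in vitro, and the sperm came from bulls at 10 months or at 16 months of age. Semen of 4 bulls was taken at either age according to the design, but the labels do not tie an array to a bull or give a number of embryos per sample. RNA of either age shared each of 4 arrays. Embryos of 10-month sires carried the red dye Cy5 on replicates 1 and 2 and the green dye Cy3 on replicates 3 and 4, and embryos of 16-month sires carried the other dye each time. There were thus 8 embryo samples, 4 per age. All RNA had been amplified before labelling, and no group was untreated or sired by adult bulls. Of the embryo probes, 33452 to 35972 per array were above background in either dye, and replicate 3 had the widest log2 ratios (SD over probes 0.47, against 0.30 to 0.32 on the others).

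Interferon tau is a type I interferon that the trophectoderm of ruminants secretes around the time of maternal recognition of pregnancy. It acts on the uterine lining, where it prevents the release of the prostaglandin pulses that would end the life of the corpus luteum. PAGs belong to the aspartic proteinase family, although many of them lack proteolytic activity, and some reach the maternal blood and serve as pregnancy tests in cattle. An evolutionarily older branch of cattle PAGs, which includes PAG2, PAG8, PAG10, PAG11 and PAG12, is made across the trophectoderm, whereas most other members are products of the binucleate trophoblast cells that form later than the blastocyst stage. TKDPs are secreted proteins that carry a domain related to Kunitz-type serine protease inhibitors, and they are expressed by the ruminant trophoblast around implantation.

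Of the 19 symbols, 18 are current in the RefSeq gene table of assembly ARS-UCD2.0. IFNT is there an older name of IFNT2 and of IFNT3, so which copies of this multigene family the probe reads could not be settled. The PAG members all lie on 1 chromosome and the TKDP members on another. These are families of closely similar genes, so a probe may also read a relative, and probes of 2 genes are not independent of each other where it does.

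A spot counted as above background where its median scan intensity exceeded a threshold set from the negative control spots of its array and dye. This threshold was their median plus 2 median absolute deviations, the deviation being scaled to match the SD of normally distributed values. By this rule 9 genes were above background in all 8 samples, namely IFNT, TKDP1, TKDP2, PAG2, PAG5, PAG8, PAG11, PAG19 and PAG21. The same rule passed 0.65% to 11.8% of the negative control spots, depending on array and dye. In their dimmest sample PAG5 and PAG21 were at 1.01 times the threshold and PAG19 at 1.07 times, so these passed narrowly. A further 9 probes passed in 1 to 7 samples, and 3 probes, for PAG9, PAG10 and PAG14, passed in none. At its brightest, IFNT reached 103 times the background threshold. For TKDP2 the factor was 7.71 and for PAG2 18.4, and TKDP1 lay between them. PAG12 reached 5.14 and PAG8 4.68. Signal well above the threshold was thus seen for interferon tau, for 2 of 3 TKDP genes and for 3 of the 5 PAGs of the older branch, a grouping made with these values in view. The 10 PAGs outside that branch reached at most 1.54 times the threshold. These factors describe detection by each probe and set no order of transcript levels between genes.

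**Figure D1:**
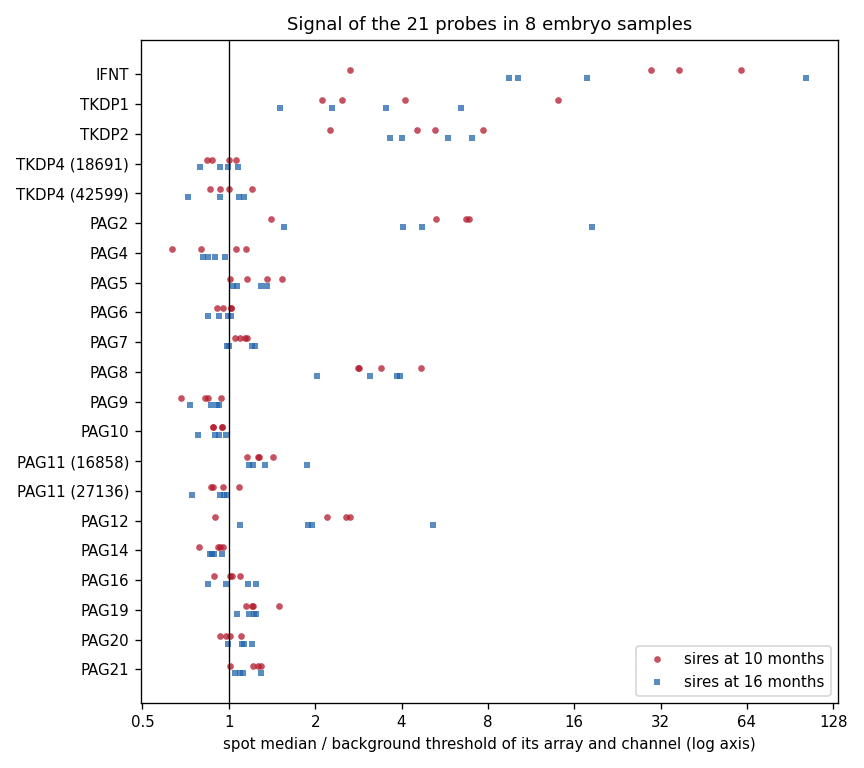
Spot median divided by the background threshold of its array and dye (log axis) for the 21 probes, with 1 point per embryo sample, red circles for sires at 10 months and blue squares for sires at 16 months. The vertical line marks the threshold; IFNT reached 103 times it, PAG2 18.4 times, and PAG9, PAG10 and PAG14 stayed below it in all 8 samples.

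IFNT, the interferon itself, differed more between embryo samples than between sire ages. Its scan medians on replicates 1 to 4 were 2806, 2712, 621 and 17103 in embryos of 10-month sires. In embryos of 16-month sires they were 2904, 2342, 2133 and 8745. Raw intensities of different dyes cannot be set against each other, because Cy3 spots and their background scanned brighter, so levels were also normalised over arrays and dyes on a log2 scale. A dye effect particular to a gene remains in these levels. The normalised log2 levels of IFNT were 11.64, 11.83, 9.06 and 13.90 at 10 months and 11.05, 11.10, 11.00 and 13.14 at 16 months (11.61 ± 1.98 and 11.57 ± 1.05, SD, n = 4 each). The groups overlapped fully: both samples of replicate 4 were highest, and the 10-month sample of replicate 3 was lowest. Between these extremes lay a 28.7-fold range (4.84 on the log2 scale), against a median range of 0.78 over the 20389 probes above background in all 8 samples. The 5 samples in the middle of the order, those of replicates 1 and 2 and the 16-month sample of replicate 3, lay between 11.00 and 11.83, whereas 13.14 and 13.90 stood above and 9.06 below. No sample was measured in repeat, so the error of a single level is not known.

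TKDP1, a Kunitz domain protein of the early trophoblast, was highest in the replicate 4 sample of 10-month sires. Its scan medians on replicates 1 to 4 were 389, 181, 498 and 3940 at 10 months and 653, 372, 425 and 547 at 16 months. The normalised log2 levels were 8.90, 7.99, 8.67 and 11.52 at 10 months (9.27 ± 1.55, SD, n = 4) and 8.61, 7.96, 8.67 and 9.25 at 16 months (8.62 ± 0.53). Both samples of replicate 4 were again the highest, both samples of replicate 2 were the lowest, and the groups overlapped. TKDP2, its relative, varied within a narrower range of 1.54 on the log2 scale. Its log2 levels were 9.24, 9.58, 8.78 and 9.78 at 10 months and 9.40, 10.31, 8.84 and 9.39 at 16 months, and its highest sample was the 16-month sample of replicate 2 and not one of replicate 4. TKDP4 stayed near background, above it in 3 and 4 of 8 samples by its 2 probes.

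PAG2, a member of the older branch, had scan medians of 638, 385, 330 and 1939 at 10 months and 1158, 384, 568 and 1561 at 16 months. Its log2 levels were 9.59, 9.04, 7.93 and 10.45 at 10 months (9.25 ± 1.06, SD, n = 4) and 9.58, 8.06, 9.14 and 10.75 at 16 months (9.38 ± 1.11). As for IFNT, both samples of replicate 4 were highest and the 10-month sample of replicate 3 was lowest, and the ages overlapped. PAG12, of the same branch, had log2 levels of 8.22, 7.86, 6.78 and 8.88 at 10 months and 8.30, 7.28, 7.88 and 8.96 at 16 months. Its highest and lowest samples were those of PAG2, although its lowest, the 10-month sample of replicate 3, was not above background. PAG8 did not share that order: its log2 levels were 8.34, 8.87, 9.17 and 9.23 at 10 months and 9.10, 8.53, 8.80 and 8.57 at 16 months. Its range was 0.88, its lowest sample was the 10-month sample of replicate 1, and the ages overlapped. With dye means removed, the lowest PAG8 sample was instead the 16-month sample of replicate 2 (-0.48, against -0.30 for the 10-month sample of replicate 1). PAG11 was read near the threshold, at up to 1.87 times it, by 1 probe in all 8 samples and by the other in 1 sample. PAG10 was not above background in any.

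Among the 10 PAGs outside the older branch, PAG5, PAG19 and PAG21 were above background in all 8 samples. PAG7 was above it in 7, PAG16 and PAG20 in 5, PAG6 in 3 and PAG4 in 2 samples, and PAG9 and PAG14 in none. PAG20 passed in 2 samples of 10-month sires and in 3 of 16-month sires. Its scan medians were 96, 71, 220 and 311 at 10 months and 345, 246, 134 and 96 at 16 months, and the normalised log2 levels ran from 6.70 to 7.16 at 10 months and from 6.98 to 7.30 at 16 months. Replicate 4 at 10 months lay among the 16-month samples, so the ages overlapped. At such signals a lower level could not have been told from background. The PAG4 probe was above background in 2 samples of 10-month sires and in 0 of 16-month sires, and the second PAG11 probe in 1 and 0 samples, so no fold is given for either.

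**Figure D2:**
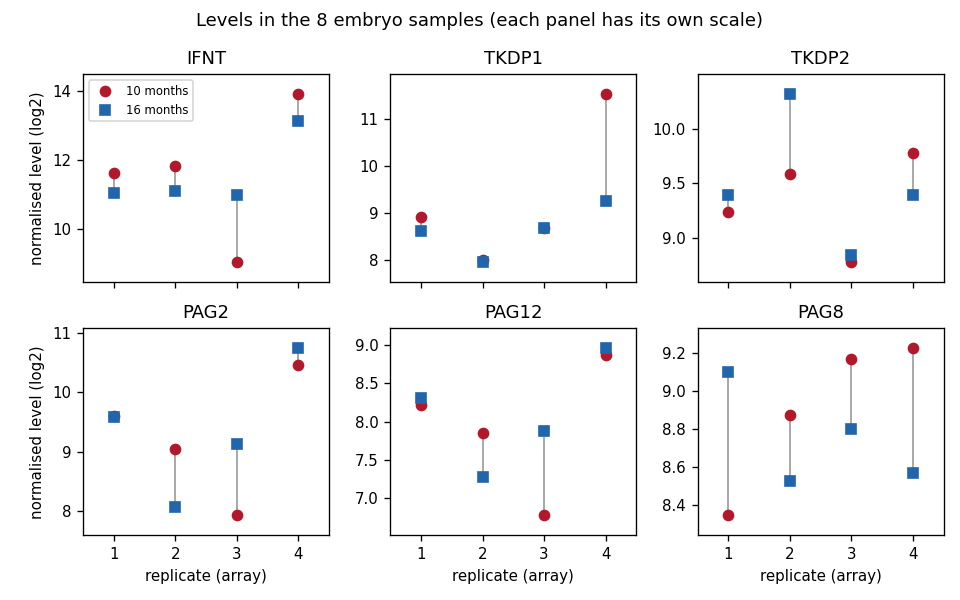
Normalised log2 level (vertical axis, own scale per panel) of IFNT, TKDP1, TKDP2, PAG2, PAG12 and PAG8 on replicates 1 to 4 (horizontal axis), with red circles for sires at 10 months and blue squares for sires at 16 months, and a line joining the 2 samples of an array. Both samples of replicate 4 are highest for IFNT, TKDP1, PAG2 and PAG12 but not for TKDP2 or PAG8; IFNT ran from 9.06 to 13.90.

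Replicate 4 stood apart for part of these genes at both sire ages. Averaged over its 2 samples, IFNT was 5.96-fold above the mean of the other 3 arrays, TKDP1 3.77-fold, PAG2 3.27-fold and PAG12 2.30-fold. The factor was 1.17 for TKDP2, 1.07 for PAG8, 0.89 for PAG5 and 0.88 for PAG21. The rise was thus not shared by all trophoblast products, and it is a description of 1 array with no test. In RNA of whole embryos, more cells of a type and more RNA per cell cannot be told apart. Levels of other lineage genes are given here on the same scale. For comparison, 23.9% of all probes above background in all 8 samples lay below -0.16 on replicate 4. The share was 35.6% below -0.09 and 69.3% below 0.10, so small differences of either sign were common. Of the 12 measured trophectoderm epithelium genes above background in all 8 samples, 7 were higher and 5 lower on replicate 4 than on the other arrays, with a median difference of 0.02 on the log2 scale. Of 10 inner cell mass genes, 3 were higher and 7 lower, with a median of -0.16. Of 19 trophectoderm regulators, 11 were higher and 8 lower, with a median of 0.01. Of 6 oocyte and maternal genes, 0 were higher and 6 lower, from -0.41 to -0.13 with a median of -0.19. Single genes departed from these medians. The keratin KRT19 was 1.89 higher on replicate 4 and the pluripotency factor NANOG 1.80 higher, while KRT8 differed by -0.01, KRT18 by 0.12 and SOX2 by -0.15. Among the regulators, DLX3 was 0.79 higher, DLX4 0.74, ID2 0.66 and TFAP2A 0.59, whereas CDX2 differed by -0.10, JUN by -0.42 and POU5F1 by -0.49. The part of these genes, and of the cells they mark, in the replicate 4 levels was not tested.

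Each array gave a ratio of embryos of 10-month over embryos of 16-month sires, and no member gene passed the test of sire age in the fit over all 4 arrays. The log2 ratio of every probe was fitted with a dye and an age coefficient in limma, and the Benjamini-Hochberg adjustment ran over the 36325 probes tested, those above background in either dye on at least 2 arrays. Of the 21 probes, 17 passed that filter and 4 did not, for PAG9, PAG10, PAG14 and the second PAG11 probe. In limma 0 of the 17 passed an adjusted p of 0.05, where the background over all probes was 0%, and 0 passed an unadjusted p of 0.05, where it was 3.96%. By sign, 10 probes were higher and 7 lower at 10 months, with a median log2 ratio of 0.03. Only TKDP1 had the same sign on all 4 arrays, against 9.37% of all probes, and its replicate 3 ratio was 0.00 when rounded. These signs are of ratios that still hold the dye effect. With dye means removed, TKDP1 on replicate 3 was lower at 10 months (-0.52) than at 16 months (-0.03). The labels call the arrays biological replicates without naming cultures or bulls, so the p-values measure the spread between these arrays only.

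IFNT had log2 ratios of 0.60, 0.73, -1.94 and 0.76 on replicates 1 to 4. The fitted ratio was 0.04 ± 0.36 (SE, n = 4 arrays), with a 95% interval of -0.80 to 0.88 and an adjusted p of 0.995 in limma. These single-array ratios still hold the dye effect, fitted at 0.63 for Cy5 over Cy3. With dye means removed, the levels at 10 and 16 months were -0.26 and -0.23 on replicate 1 and -0.07 and -0.17 on replicate 2. They were -2.22 and -0.91 on replicate 3 and 2.63 and 1.24 on replicate 4. Replicates 3 and 4 were thus opposite, and on replicates 1 and 2 the ages were close. Without replicate 4, the ratio was -0.64 ± 0.13 with an adjusted p of 0.0222 in limma. That fit left replicate 3 as the only array of its dye orientation, and it called 1858 probes in all. Without replicate 3 the ratio was 0.71 and was not called.

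TKDP1 had log2 ratios of 0.30, 0.04, 0.00 and 2.27, of which only that of replicate 4 was far from 0. The dye effect, fitted at -0.48 for Cy5 over Cy3, remains in these ratios, so those near 0 do not show equal levels. With dye means removed, the levels at 10 and 16 months were 0.20 and -0.58 on replicate 1 and -0.71 and -1.23 on replicate 2. They were -0.52 and -0.03 on replicate 3 and 2.33 and 0.54 on replicate 4. Replicate 3 was thus opposite in sign to the other arrays. The fit gave 0.65 ± 0.31 (SE), or 1.57-fold, with a 95% interval of -0.07 to 1.38, an unadjusted p of 0.072 and an adjusted p of 0.957 in limma. Replicate 4 decided this value: without it the ratio was 0.08. Without replicate 3, which left replicate 4 as the only array of its orientation, it was 1.22 ± 0.14 with an adjusted p of 0.0170 in limma, in a fit that called 6 probes in all. TKDP2 had ratios of -0.16, -0.73, -0.07 and 0.38 and a fitted ratio of -0.14 ± 0.15. The TKDP4 probes gave -0.07 ± 0.16 and 0.03 ± 0.16.

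PAG2 had log2 ratios of 0.01, 0.98, -1.21 and -0.29, and the fitted ratio was -0.13 ± 0.20 (SE) with a 95% interval of -0.60 to 0.35. PAG12 followed the same signs on replicates 2 to 4, with -0.09, 0.58, -1.10 and -0.09 and a fitted ratio of -0.17 ± 0.19. Both genes had their lowest ratio on replicate 3, as IFNT did, by ratios that still hold the dye effect (fitted at 0.62 for PAG2 and 0.42 for PAG12). With dye means removed, PAG2 at 10 and 16 months was at -0.04 and 0.57 on replicate 1 and at -1.08 and -0.49 on replicate 3. PAG12 was at -0.01 and 0.49 on replicate 1 and at -1.03 and -0.35 on replicate 3. Both were thus lower at 10 months on replicate 1 too, where IFNT was at -0.26 and -0.23. Ratios and levels come from the same spots, so one does not check the other. PAG8 had -0.76, 0.35, 0.37 and 0.66, a fitted 0.15 ± 0.18 and an interval of -0.27 to 0.58. PAG20 had -0.55, -0.31, -0.18 and 0.18. Its fitted ratio was -0.21 ± 0.13 (unadjusted p = 0.13, adjusted p = 0.957 in limma), and it was lower at 10 months on 3 of 4 arrays. Over the 12 PAG probes tested, fitted log2 ratios ran from -0.21 to 0.15. The 95% intervals differed in width between probes, from -0.62 to 0.27 for PAG12 and -0.60 to 0.35 for PAG2 down to -0.23 to 0.29 for PAG7, and each included 0.

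**Figure D3:**
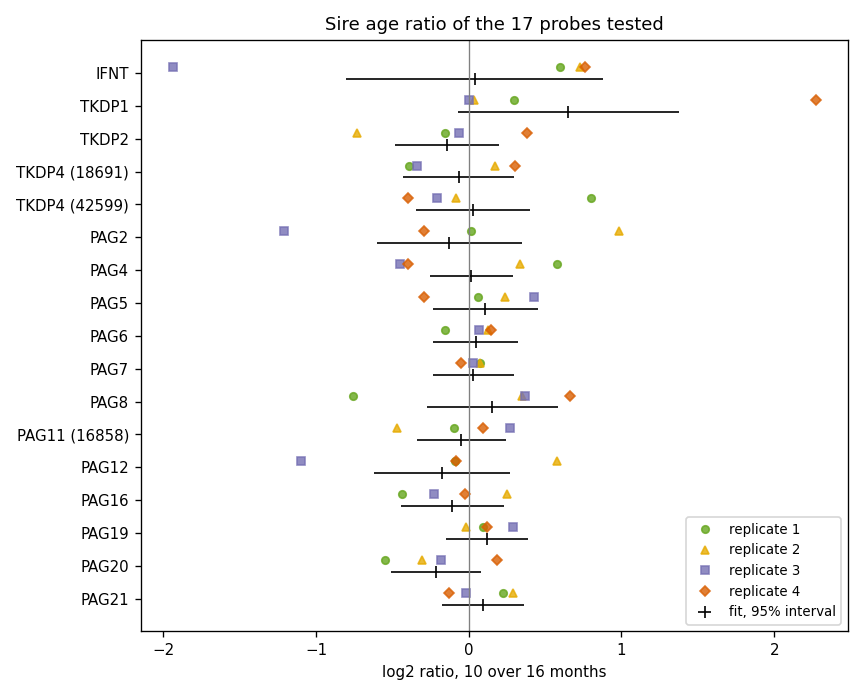
Log2 ratio of embryos of 10-month over 16-month sires (horizontal axis) for the 17 probes tested, with 1 coloured point per replicate and a black tick with a line for the fitted ratio and its 95% interval. Every interval includes 0; the replicate 3 ratio of IFNT (-1.94) and the replicate 4 ratio of TKDP1 (2.27) lie far from the other arrays. The coloured points still hold the dye effect.

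Whether the genes varied together was read from the normalised log2 levels of the 8 samples, after the mean of each dye had been removed for each gene, over the 9 genes above background in all 8. The genes did not move as 1 block. Of the 36 pairs, 20 had a positive and 16 a negative Pearson r, with a median of 0.02. In the exact permutation test over the 40320 pairings of 8 values, two-sided, 0 pairs passed an adjusted p of 0.05 over the 36 pairs, by r or by Spearman's rho. By either measure, 5 pairs passed an unadjusted p of 0.05. The smallest adjusted p was 0.0982 for r and 0.330 for rho. The 2 samples of an array share its hybridisation, so the 8 values are not fully independent.

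Interferon tau and PAG2 gave the highest r, 0.85 (unadjusted exact p = 0.003, adjusted 0.0982, rho = 0.64). Leaving out the 10-month samples of replicates 3 and 4, the 2 farthest from the median of IFNT, gave 0.69, and leaving out replicate 4 gave 0.50. Among the 20389 probes above background in all 8 samples, 2.55% had a higher r with IFNT than PAG2 had. TKDP1 with PAG2 had r = 0.80 and rho = 0.74, with r = 0.57 without the 2 samples farthest from its median and 0.41 without replicate 4. IFNT with TKDP1 had r = 0.76 but rho = 0.29, and r fell to -0.48 without replicate 4, so that relation rested on replicate 4. The older-branch PAG12, above background in 7 samples, was added after its values were seen: its r was 0.99 with PAG2, 0.89 with IFNT and 0.74 with TKDP1, and without replicate 4 these were 0.97, 0.69 and 0.21. PAG2 and PAG12 thus kept a high r without replicate 4, and since they are relatives a probe may read either transcript.

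The other pairs took either sign. IFNT and PAG21 had r = -0.82 (rho = -0.83), which was -0.80 without the 2 farthest samples and -0.98 without replicate 4. It was smaller in size elsewhere, at -0.56 without replicate 3, -0.57 with dye means kept and -0.14 with spot means in place of medians. TKDP2 and PAG21 had r = -0.86, which was -0.46 without replicate 3 and 0.64 with spot means. PAG21 was read at no more than 1.30 times the threshold, with a range of levels of 0.43 on the log2 scale, so these values rest on small differences close to background. IFNT and TKDP2 had r = 0.58 and rho = 0.76. Positive values were also found for PAG5 with PAG21 (r = 0.67), TKDP1 with PAG11 (0.62) and PAG19 with PAG21 (0.59). Without the 2 samples farthest from the median of the first gene, these were -0.02, 0.76 and 0.33. Without replicate 4 they were 0.71, 0.21 and 0.53. PAG5 and PAG19 reached at most 1.54 times the threshold and PAG11 1.87 times, so each of these pairs includes a gene read close to background. IFNT and PAG8 had r = 0.04, and TKDP1 and TKDP2 had r = -0.02.

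**Figure D4:**
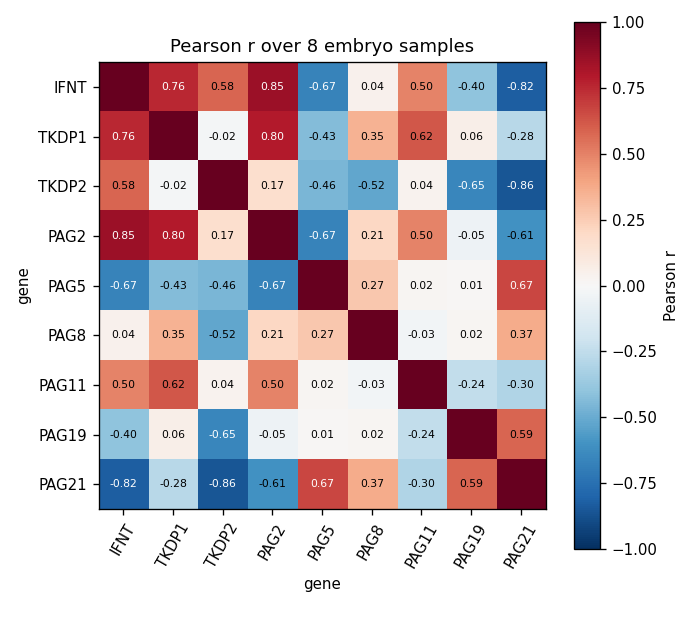
Pearson r between the 9 genes above background in all 8 embryo samples (rows and columns), from blue for -1 to red for 1, over dye-centred log2 levels. IFNT, TKDP1 and PAG2 form positive pairs of 0.76 to 0.85, PAG21 is opposite to IFNT and TKDP2, and no pair passed the adjusted test.

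**Figure D5:**
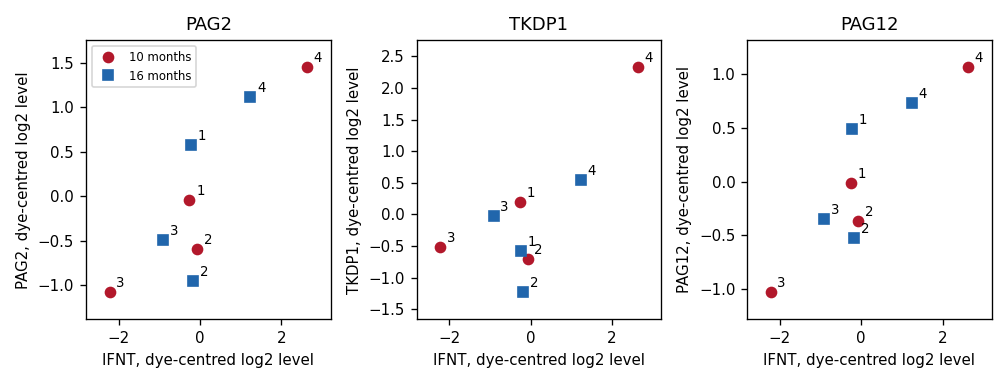
Dye-centred log2 level of PAG2, TKDP1 and PAG12 (vertical axes) against that of IFNT (horizontal axis) in 8 embryo samples, with red circles for sires at 10 months, blue squares for sires at 16 months and the replicate number beside each point. Both samples of replicate 4 lie at the upper right in each panel, and the 10-month sample of replicate 3 is at the far left.

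The genes whose levels were most like each member were taken by the highest r over the 8 samples, without a test, since they were picked for it out of the 20389 probes. For IFNT these were UBE2D1, a ubiquitin-conjugating enzyme (r = 0.99), MYL7, an atrial myosin light chain, PTGS2, the inducible cyclooxygenase of prostaglandin synthesis (r = 0.98), LOC781778 and AGPAT9. Without replicate 4 the r of PTGS2 with IFNT was 0.95, over 6 samples. For PAG2 they were ACAT2, which makes acetoacetyl-CoA, LIAS, the lipoic acid synthase, PFDN4, B4GALT3 and TLE3, with r of 0.96 to 0.98. TACC2, MRPS25, SAT1, XBPP1 and ZNF75D were nearest to TKDP1 (0.95 to 0.98), of which SAT1, a polyamine acetyltransferase, fell to 0.51 without replicate 4. TKDP2 was nearest to TBP, C2H2orf24, POMC, UFC1 and SPINLW1 (0.98 to 0.99), and PAG8 to NDUFB9, MRPS31, ZNRD1, MYLIP and FCGRT (0.93 to 0.98). PAG19, near background, was nearest to BFSP1, TEK, SURF1, ASCL2 and TMCC2 (0.97 to 0.99). The nearest to PAG5 were ADAT2, SRRM1, LGALS8, ZBED5 and FOXR1 (0.98). PAG11 was nearest to LOC784385, ELP3, PDIA5, SAR1A and a probe of AGPAT9 (0.93 to 0.95), and PAG21 to ZDHHC17, BAT2L2, S100A3, CUL4B and SELT (0.98 to 0.99). No gene outside the members was among the 5 nearest of more than 1 member except AGPAT9, which was so for IFNT and PAG11 by different probes.

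Genes around the trophoblast products were compared between the sire ages on 10 lists, each gene by its brightest probe. Of 124 listed genes measured, 0 passed an adjusted p of 0.05 in limma, and 9 passed an unadjusted p of 0.05, where the background was 4.47% of 13506 genes. The median log2 ratio of all genes was 0.00. Of other trophoblast products, 13 of 23 listed were measured, 0 passed the unadjusted test, and their median was -0.03. PLAC8, a gene of the trophoblast and endometrium, was at -0.32 ± 0.15 (SE) and the cathepsin CTSL2 at -0.19 ± 0.13. The mean over the 5 probes of PLAC8 was -0.19, and over the 3 of CTSL2 it was -0.11.

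Among 23 measured trophectoderm regulators, several of which are known to act on the interferon tau promoter, 1 was higher and 1 lower at an unadjusted p of 0.05, with a median of -0.05. These were FOS, an AP-1 subunit, at 0.34 ± 0.12 by the brighter of its 2 probes (mean of both 0.22), and HAND1, a trophoblast bHLH factor, at -0.28 ± 0.12. Of 14 trophectoderm epithelium genes, 0 passed, with a median of -0.11. On replicate 3, where IFNT, PAG2 and PAG12 had their lowest ratios, the median ratio of these epithelium genes was -0.56, against 0.03 to 0.07 on the other arrays. The dye effect remains in all these ratios, and the part of the epithelium genes in the member ratios was not tested. The inner cell mass list (12 genes, median 0.14) had 7 genes higher and 5 lower at 10 months. STAT3 was higher at 0.29 ± 0.12 by its brightest probe, although the mean over its 3 probes was 0.01. NANOG was at 0.30 ± 0.14, LIN28B at 0.23 ± 0.15 and PRDM14 at 0.23 ± 0.16 (mean of its 2 probes 0.12). DPPA3 was at -0.18 ± 0.13 (mean of its 2 probes -0.08) and POU5F1 at -0.16 ± 0.16. The primitive endoderm list (13 genes, median -0.16) had 6 genes higher and 7 lower. LAMA1, a laminin chain, was at -0.47 ± 0.15 and the type IV collagen chain COL4A1 at -0.35 ± 0.14, both lower by the unadjusted test. TTR was at 0.26 ± 0.12, COL4A2 at -0.24 ± 0.11 and SOX17 at 0.25 ± 0.16, and none of these passed it.

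The receptor and response side of interferon signalling was measured in the embryo itself. Of 9 genes of the type I interferon receptor and its signal, 0 passed the unadjusted test, with a median of 0.09. The receptor chain IFNAR1 was at 0.23 ± 0.15 by its brightest probe (mean over its 3 probes 0.18). Of 16 measured interferon-stimulated genes out of 29 listed, 1 passed it, IFIT5, at 0.48 ± 0.11 (adjusted p = 0.957 in limma), and the median was 0.04. Of these 16, only MX2, IFI35, IFIT3, CXCL10 and PSMB9 were above background in all samples, and ISG15, MX1, OAS1 and OAS2 were not. On replicate 4, where IFNT was 5.96-fold higher, 1 of these 5 was higher and 4 were lower than on the other arrays. Their median difference was -0.08, where 35.6% of all probes above background in all samples lay below -0.09. Of 6 receptor and signal genes, 4 were higher and 2 lower on replicate 4, with a median of 0.21 and a highest difference of 0.47. Whether these genes followed the IFNT level was not tested.

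Maternal transcripts and markers of cells that could accompany embryos did not pass the adjusted test. The oocyte and maternal list (11 genes, median -0.09) had BTG4 at -0.82 ± 0.16. The cumulus list (8 genes) had a median of 0.01 and the blood cell list (7 genes) 0.12, with CD74 at -0.29 ± 0.12 and PTPRC at 0.49 ± 0.20. These last 3 genes passed the unadjusted test only. By sample, the median dye-centred level of the trophectoderm epithelium list ran from -0.16 to 0.08 at 10 months and from -0.01 to 0.10 at 16 months.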

How the data were processed

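RNA of 8 embryo samples was read on 4 two-colour arrays. The deposited scan files give, per the file headers, the foreground and local background intensity of each spot on a linear scale, not normalised, and mark spots that the scan software set aside (21 to 82 per array). These marks, coded 0 or 1, were used as deposited. The authors' deposited table holds log2 ratios, for which the submitters' processing notes name limma without a version. It correlated with the Cy5 over Cy3 ratios computed here at r = 0.952 to 0.979, and its column medians were -0.02, -0.01, -0.01 and -0.01. Whether it was centred on purpose is not known, and the sources used here do not give its background correction.

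Computation used limma 3.58.1 under R 4.3.3. Spot medians went through normexp (offset 50) without set-aside spots and normalised by loess within arrays, with weight 0 for control spots. Levels of single samples were made by Aquantile between arrays. The age test was lmFit with a dye and an age term, then eBayes, with 2 residual and 5.72 prior degrees of freedom. SEs come from the fit, and the dye effect remains in ratios of single arrays. The number of arrays limits the precision. Where a gene had several probes, the brightest stood for it. Every member was named, and the genes nearest to a member were the 5 with the highest r. List genes named for sire age were up to 4 with the smallest p, and DPPA3, POU5F1 and SOX17 were named besides. List genes named for replicate 4 followed no such rule. The members and lists were chosen with earlier results of these data known. Alternatives changed the background correction, normalisation, spot summary, filter, variance model, dye term, channels, source of values and arrays used. All arrays lay on 1 slide. Probe coordinates and sequences were not used here.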

Additional observations from a re-analysis of the deposited data

Results flagged for a closer look

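Levels at each age and log2 ratios of the 9 genes above background in all samples were examined for a value far from the other 3 of its group of 4, and 3 of 27 groups held one. Chance gives about 1 in 20 for a single group, but levels and ratios come from the same spots, so the 27 groups are not independent. The log2 level of IFNT in the replicate 4 sample of 16-month sires, 13.14, lay above 11.00 to 11.10 on the other arrays. The IFNT log2 ratio of replicate 3, -1.94, lay below 0.60 to 0.76. The TKDP1 log2 ratio of replicate 4, 2.27, lay above 0.00 to 0.30. The levels and the ratios examined still hold the dye effect, and the check was not repeated with dye means removed. With these removed, the IFNT levels at 16 months were -0.23, -0.17, -0.91 and 1.24 on replicates 1 to 4, so the other 3 lay less close together.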

How the results depend on the processing

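Of the alternatives, only leaving out an array changed the number of probes called for sire age: it was 0 to 1858 over all probes (6 without replicate 3, 1858 without replicate 4) and 0 to 1 over member probes (TKDP1 and IFNT). In those fits 1 dye orientation rests on 1 array, assumed to vary like the others. Pairs of genes called for co-variation numbered 2 with no normalisation between arrays, 2 with no background correction and 0 to 3 when an array was left out (3 without replicate 2), against 0. Small age ratios changed sign: IFNT was -0.086 with median centring, PAG19 -0.11, PAG20 0.0023 and PAG21 -0.13 with spot means, and TKDP2 0.055, PAG2 0.22, PAG5 -0.17 and PAG12 0.22 with the sign of replicate 3 turned. That turn also moved IFNT to 0.92 and TKDP1 to 1.19, so that 2 of 17 member probes passed an unadjusted p of 0.05 and 0 the adjusted test in limma. With 1 array left out, the ranges were -0.64 to 0.71 for IFNT, 0.08 to 1.22 for TKDP1, -0.29 to 0.00076 for TKDP2, -0.37 to 0.12 for PAG2, -0.071 to 0.29 for PAG5, -0.12 to 0.43 for PAG8, -0.14 to 0.045 for PAG11 and -0.43 to 0.079 for PAG12. Correlations that changed sign were IFNT with PAG8 (-0.10 with dye means kept, -0.14 without the 2 farthest samples), TKDP2 with PAG21 (0.64 with spot means), and, with an array left out, IFNT with TKDP1 (-0.48 to 0.92), TKDP2 (-0.058 to 0.95) and PAG8 (-0.48 to 0.46). The cause was not tested. Signal over background limits what the dimmer PAG probes can show. Both ages were paired within each array in the fit, so no further block by replicate number was added.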
